A study of Mus musculus with 6 samples.

Results

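The genes described here encode calcitonin gene-related peptide (CGRP), its relative adrenomedullin and the receptor that both peptides share. They are Calca and Calcb, which each encode a form of CGRP, Adm for adrenomedullin, Calcrl for the calcitonin receptor-like receptor, and Ramp1, Ramp2 and Ramp3 for its accessory proteins. These 7 genes, out of 24346 gene symbols in the files, were named as a list, and the values of each were followed between S37A and vector libraries. The list was drawn up with S37A and vector values of these same libraries known, Calca and Calcb being among the genes with the largest differences, so the differences of the 7 genes between the groups are given as descriptions and without a test.

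RNA came from primary stromal cells grown out of the prostates of C57BL/6 mice aged 8 to 12 weeks. The S37A group (3 libraries) carried a lentivirus, FU-CGW, with a cDNA for β-catenin in which serine 37 is replaced by alanine, a change known to slow breakdown of the protein, and the vector group (3 libraries) carried FU-CGW alone. All cells of both groups were grown on collagen in medium with 5% Nu-Serum, 5% fetal bovine serum and 1e-10 M dihydrotestosterone, and were used within 3 weeks of dissociation. A replating step, listed at 30 min, was common to both groups. The protocol names both UGSM cells and dissociated prostate cells as targets of the lentivirus, while every library here is labelled as prostate stroma. The promoter that drives the cDNA is not named in the labels. Whether replicates are separate cultures or mice is not stated either, so p-values measure only the spread between these libraries, which may be technical.

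CGRP is best known as a vasodilator peptide of sensory nerves, where it acts with substance P in neurogenic inflammation. Calca RNA is spliced in alternative ways: thyroid C cells mostly make calcitonin from it, and neurons mostly make CGRP, while Calcb yields only CGRP. CGRP binds Calcrl paired with Ramp1, and adrenomedullin binds Calcrl paired with Ramp2 or Ramp3. The receptor acts mainly through the Gs protein and cyclic AMP, and without a RAMP it does not reach the cell surface as a working receptor.

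The gene structures decide which reads can tell the peptides apart. In GENCODE M21 models on mm10, Calca lies on the minus strand of chromosome 7 (chr7:114631478-114636357) and Calcb on the plus strand (chr7:114718643-114723365), so that they point away from each other with their starts 82.3 kb apart. The calcitonin form of Calca ends in its own exon 4, and the CGRP form skips that exon and continues into a different exon 4 and an exon 5. The coding parts of these exons, written 5′ to 3′ on the strand of each gene, show why the CGRP exons are hard to separate; capitals mark the bases that differ or are inserted between Calca and Calcb in their alignment.
Calca, exon 4 of the CGRP form, chr7:114632443-114632599: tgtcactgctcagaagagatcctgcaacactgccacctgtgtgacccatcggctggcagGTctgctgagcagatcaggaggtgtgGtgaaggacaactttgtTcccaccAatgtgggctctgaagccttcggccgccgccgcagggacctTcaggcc
Calcb, exon 4, chr7:114721975-114722134: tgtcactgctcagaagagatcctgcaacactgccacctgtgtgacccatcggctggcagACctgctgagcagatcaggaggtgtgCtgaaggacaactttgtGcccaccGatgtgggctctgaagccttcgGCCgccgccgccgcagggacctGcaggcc
Calca, exon 4 of the calcitonin form, chr7:114633605-114633785: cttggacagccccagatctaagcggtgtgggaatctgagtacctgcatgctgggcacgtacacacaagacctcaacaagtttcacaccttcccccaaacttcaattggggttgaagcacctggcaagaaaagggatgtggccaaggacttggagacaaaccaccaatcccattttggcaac

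The CGRP exons were identical at 151 of 157 aligned bases (96.2%), with 6 differing bases and a gap of 3 bases. The calcitonin exon aligned to the Calcb exon with only 56.0% identity. Over whole transcripts, the longest run shared by Calcb and the CGRP form of Calca was 60 bases, and 11 of 913 stretches of 50 bases in Calcb (1.20%) also occurred in Calca. No stretch of 25 bases was shared by Calcb and the calcitonin form, whose longest common run was 13 bases. Reads that fall wholly inside the shared run cannot be given to Calca or Calcb with certainty, and the run lies in the CGRP form of Calca.

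**Figure D1:**
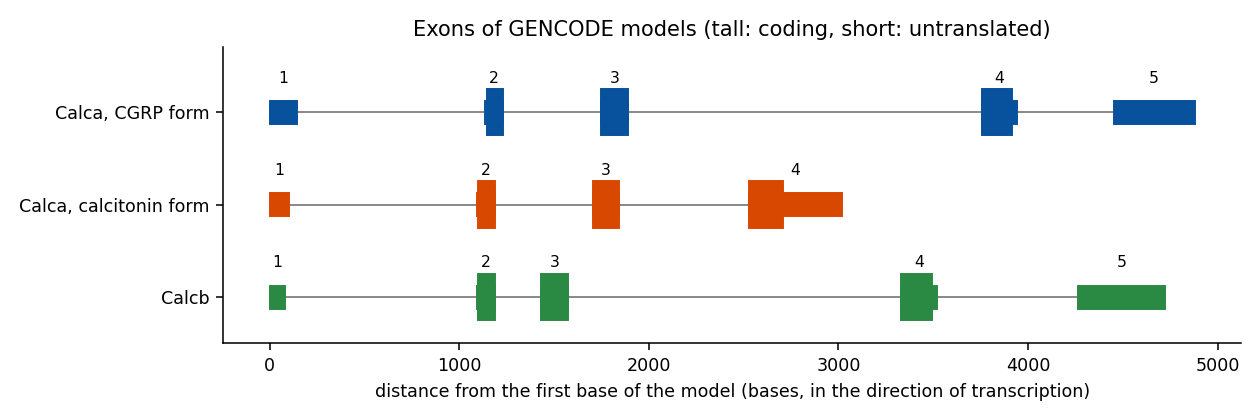
Exons of the 2 Calca forms and of Calcb, numbered in each model, against distance in bases from the first base of the model; tall boxes are coding, short boxes untranslated, and lines are introns. The Calca forms share exons 2 and 3 and part at exon 4.

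Levels are in FPKM, a fragment count corrected for the length of the transcript model and for library size. The interval widths beside the FPKM values corresponded to 41.2 to 47.5 M fragments in S37A libraries and 46.8 to 51.6 M in vector libraries. Ctnnb1, the gene of β-catenin, had 132, 144 and 146 FPKM in S37A libraries, against 116, 99.1 and 116 FPKM in vector libraries, and the groups did not overlap. The deposited values do not separate reads of the introduced cDNA from reads of the cells' own gene. Axin2, a Wnt target gene whose protein helps degrade β-catenin, had 2.74 to 3.29 FPKM in S37A libraries and 0.0921 to 0.169 FPKM in vector libraries. Stromal genes were abundant in all 6 libraries, among them Vim, Col1a1 and Acta2, whose means exceeded those of every CGRP-related gene, while Lum averaged 0.398 FPKM in S37A and 0.295 FPKM in vector libraries.

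Calca, the gene of calcitonin and α-CGRP, was far higher in S37A cells than in vector cells, where it was barely counted. Its summed level was 4.43, 4.58 and 4.52 FPKM in S37A libraries, against 0.659, 0.224 and 0.377 FPKM in vector libraries. The S37A libraries lay close together, and the lowest of them was far above the highest vector library. The mean was 4.51 ± 0.0720 FPKM in S37A and 0.420 ± 0.221 FPKM in vector (SD, n = 3 each), a 10.7-fold ratio of means. On the scale of log2(FPKM + 1), S37A minus vector, the difference was 1.97 (SE 0.128), which understates the change of a gene this low in vector cells. The intervals beside the FPKM values stood for 101 to 134 fragments per S37A library but only 5.55 to 22.8 per vector library, so the ratio rests on a poorly counted vector level.

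Calcb, the gene of β-CGRP, was the more abundant of the pair in every library. It stood at 24.8, 21.6 and 19.2 FPKM in S37A libraries and at 6.46, 2.39 and 4.89 FPKM in vector libraries. All S37A libraries were above all vector libraries, and vector replicate 2 was the lowest for Calcb as it was for Calca. The group means were 21.9 ± 2.84 FPKM in S37A and 4.58 ± 2.05 FPKM in vector (SD, n = 3 each), a 4.78-fold ratio with a log2 difference of 2.10 (SE 0.352). The deposited intervals of the vector libraries were 5.62 to 7.29, 1.90 to 2.88 and 4.15 to 5.64 FPKM, so replicate 2 differed from both others by more than counting error. The Calcb values rest on 651 to 896 fragments per S37A library and 96.0 to 238.4 per vector library.

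**Figure D2:**
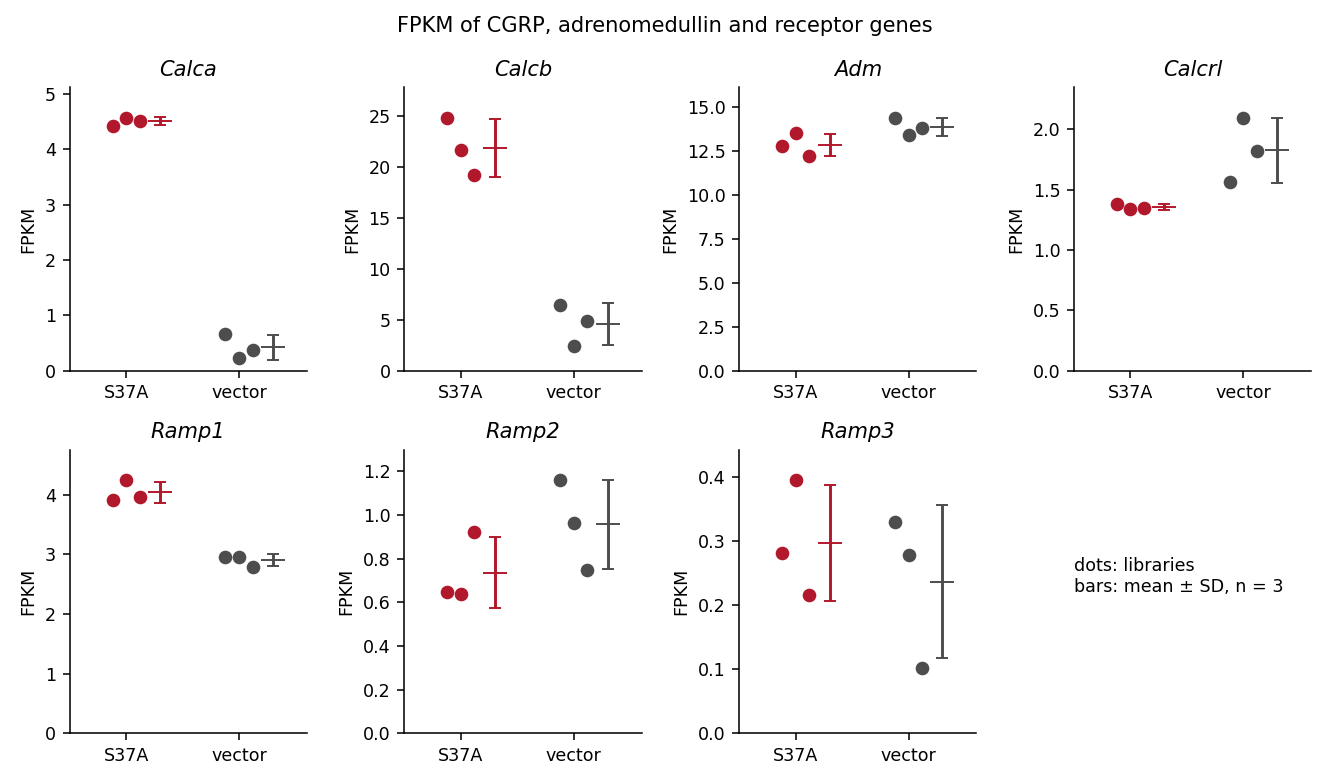
FPKM of each of the 7 genes in each library (dots), with mean ± SD (bars, n = 3), on axes that start at 0. S37A libraries of Calca (4.43 to 4.58 FPKM), Calcb (19.2 to 24.8 FPKM) and Ramp1 lie above all vector libraries, those of Calcrl below them, and the groups overlap for Adm, Ramp2 and Ramp3.

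Both forms of Calca were higher in S37A cells. The CGRP models together had 2.41, 2.73 and 2.53 FPKM in S37A libraries, against 0.443, 0.119 and 0.302 FPKM in vector libraries, an 8.87-fold ratio of means. The calcitonin models together had 2.02, 1.85 and 1.99 FPKM in S37A libraries, against 0.216, 0.105 and 0.0754 FPKM in vector libraries, a 14.8-fold ratio. For neither form did the groups overlap. The vector calcitonin intervals stood for only 6.67, 2.27 and 1.89 fragments, and those of all Calca models together for 5.55 to 22.8 per vector library. Both ratios are therefore poorly measured and cannot be ranked. The FPKM of both forms also draw on the exons that the forms share, and how reads were divided between forms and genes was not tested.

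CGRP models made up 54.4%, 59.6% and 55.9% of Calca FPKM in S37A libraries and 67.2%, 53.1% and 80.0% in vector libraries. The ranges overlapped, and the vector shares rest on so few fragments that a difference in form was not detectable at this depth. Each form also has a version whose model is longer by 24 bases, and where these bases lie was not checked. The longer versions took 41.8%, 12.8% and 0% of Calca FPKM in S37A libraries and 0%, 100% and 26.1% in vector libraries. The division between longer and shorter versions thus jumped between libraries of the same group, and only the sums over them are used here.

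The balance between Calcb and Calca, with both forms of Calca summed, also differed between the groups. On the vector side of this comparison the Calca intervals stood for only 5.55 to 22.8 fragments per library. Calcb made up 84.9%, 82.5% and 80.9% of the summed FPKM of Calca and Calcb in S37A libraries, against 90.7%, 91.4% and 92.8% in vector libraries. The S37A shares were all below the vector shares, and the Calcb to Calca ratio averaged 4.86 ± 0.690 in S37A and 11.1 ± 1.64 in vector (SD, n = 3 each). Summed over both genes, the level was 29.3, 26.2 and 23.7 FPKM in S37A libraries and 7.12, 2.62 and 5.27 FPKM in vector libraries. The ratio of means was 5.28-fold. How reads of the shared exon were divided still enters this sum through model length. Calcb has 962 bases, and the CGRP models of Calca have 994 or 1018. By mean FPKM the order of the 7 genes in S37A cells was Calcb, Adm, Calca, Ramp1, Calcrl, Ramp2 and Ramp3, with no overlap of library values between neighbours in that order. In vector cells it was Adm, Calcb, Ramp1, Calcrl, Ramp2, Calca and Ramp3, where Calcb overlapped Ramp1 and Calca overlapped Ramp3.

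**Figure D3:**
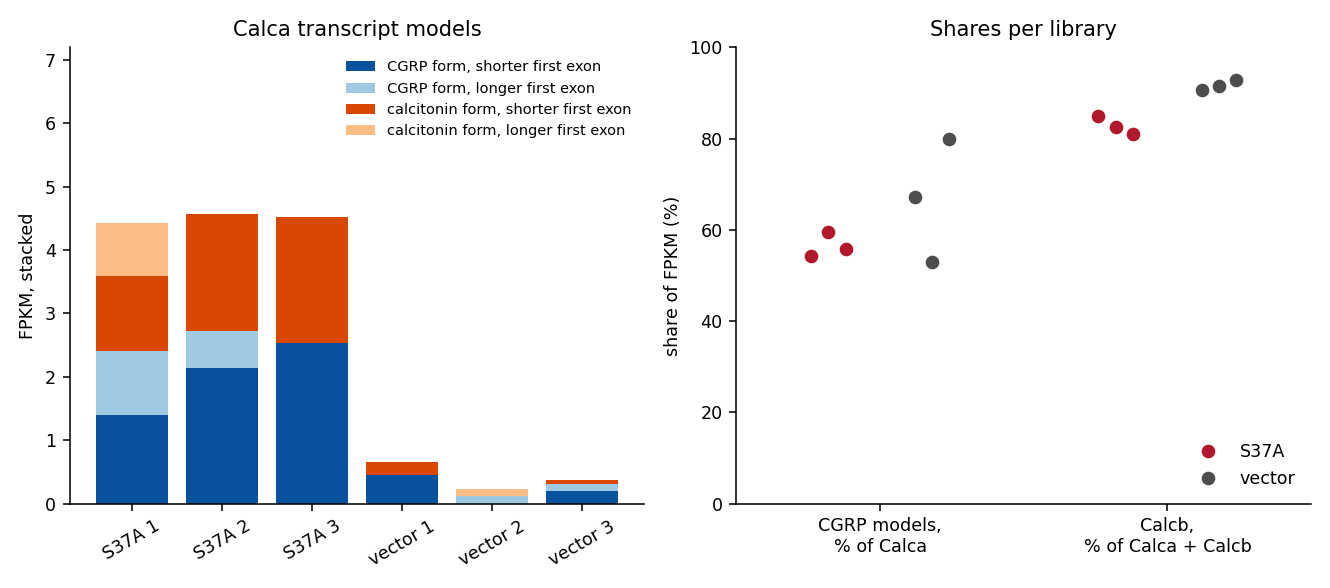
Left, FPKM of the 4 Calca models stacked by library, S37A and then vector; longer and shorter first exon in the key stand for the longer and shorter model of each form. Right, the share of Calca FPKM in CGRP models and the share of Calcb in Calca plus Calcb, in percent, each dot a library; CGRP shares overlap between the groups, and Calcb shares are 80.9% to 84.9% in S37A and 90.7% to 92.8% in vector.

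Adm, the ligand that shares Calcrl with CGRP, differed little. Its level was 12.8, 13.5 and 12.2 FPKM in S37A libraries and 14.4, 13.4 and 13.8 FPKM in vector libraries. The groups overlapped, and the log2 difference was -0.10 (SE 0.0474). An antisense gene, Gm28863, overlaps the span of Adm in the annotation. Because the library kit leaves strand unmarked, any of its reads from shared exon bases cannot be told apart from those of Adm. The annotated span of Ramp3 overlaps a pseudogene, Gm11978, and that of Ramp2 overlaps Vps25. The Ramp2 span runs to base 101259546, but the counted Ramp2 model ends at base 101248250. Whether exons overlap was not checked for any of these genes.

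The receptor genes were expressed at low levels. Calcrl, the G protein-coupled subunit, had 1.39, 1.34 and 1.35 FPKM in S37A libraries, against 1.56, 2.10 and 1.82 FPKM in vector libraries. All S37A libraries lay below all vector libraries, the ratio of means was 0.744, and the log2 difference was -0.26 (SE 0.0797). Ramp1, which makes Calcrl a CGRP receptor, had 3.92, 4.24 and 3.97 FPKM in S37A libraries, against 2.96, 2.96 and 2.79 FPKM in vector libraries. Here all S37A libraries lay above all vector libraries, with a 1.39-fold ratio of means and a log2 difference of 0.37 (SE 0.0355). All Ramp1 FPKM was in the model NM_016894, and its other models, NM_178401 and NM_001168392, were listed at 0 in every library.

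The partners that make Calcrl an adrenomedullin receptor were lower still. Ramp2 had 0.647, 0.640 and 0.922 FPKM in S37A libraries and 1.16, 0.963 and 0.750 FPKM in vector libraries, and the groups overlapped. Ramp3 had 0.282, 0.395 and 0.215 FPKM in S37A libraries and 0.330, 0.278 and 0.102 FPKM in vector libraries, again with overlap. Ramp3 stood on 9.09 to 15.7 fragments per S37A library and 3.84 to 15.7 per vector library, so a change of its level was not detectable at this depth. Ramp1 made up 80.8%, 80.4% and 77.7% of the summed RAMP FPKM in S37A libraries, against 66.5%, 70.5% and 76.6% in vector libraries, so it was the main RAMP transcript in both groups. The ratio of Ramp1 to Calcrl was 2.83, 3.17 and 2.94 in S37A libraries and 1.89, 1.41 and 1.53 in vector libraries, with no overlap.

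Across all 12022 genes averaging 0.5 FPKM or more, limma with Benjamini-Hochberg adjustment at 0.05 called 26.0%, of which 729 (6.06% of all) were higher and 2393 (19.9%) lower in S37A. Under median-ratio scaling that split turned to 1339 higher and 890 lower. Of the 6 genes on the list that passed this filter, which left out Ramp3, 3 (Calca, Calcb and Ramp1) were called higher and 1 (Calcrl) lower, the last in 3 of 14 alternatives and not under median-ratio scaling. The groups did not overlap for 47.8% of all genes, 11.3% with S37A higher and 36.5% with S37A lower. No reading is taken from the members' count, because the list was chosen on this contrast. A log2 difference of at least 1 with S37A higher was found for 44 genes, or 0.366% of those tested. Calca and Calcb are among them, but they were listed with these large differences known.

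Genes that are not on the list but act in the same pathway were compared between S37A and vector with limma. These pathway lists were also chosen with earlier results of these data known, so their counts and p-values are descriptive. Over 5 lists with 69 genes in all, 55 passed the filter, of which 8 rose and 3 fell (11 and 2 under median-ratio scaling). That is to be read against 6.06% of all genes rising and 19.9% falling. The median log2 difference over the 55 genes was 0.02, against -0.07 over all tested genes.

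Among other peptides and receptors of the family, 0 of 4 tested genes rose and 0 fell by limma. Crcp, a component that couples the CGRP receptor to its signal, had a mean of 18.3 ± 1.36 FPKM in S37A and 19.2 ± 0.0978 FPKM in vector (limma adjusted p = 0.334). Adm2, which encodes another ligand of Calcrl, had 5.50 ± 0.240 FPKM in S37A and 6.67 ± 1.10 FPKM in vector (limma adjusted p = 0.128). Without vector replicate 1 its log2 difference of -0.23 became -0.35 and was called (limma adjusted p = 0.0095, against 0.34 at most over the alternatives). Calcr, the calcitonin receptor, was below the filter, at 0.0151 FPKM in S37A and 0.0282 FPKM in vector. Iapp, the gene of amylin, was listed at 0 in every S37A library and at 0.122 to 0.257 FPKM in vector libraries.

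Genes that process or break down such peptides were mostly at like levels in both groups, with 1 of 6 tested rising and 0 falling. Pcsk5, a proprotein convertase, had 8.83, 10.3 and 9.68 FPKM in S37A libraries, against 8.44, 6.86 and 7.46 FPKM in vector libraries (log2 difference 0.31, SE 0.0792, limma adjusted p = 0.0304). The groups did not overlap, but the call was lost under 7 of 14 alternatives. Cpe, a carboxypeptidase of prohormone processing, averaged 251 ± 5.83 FPKM in S37A and 242 ± 1.18 FPKM in vector, and the convertase Furin 52.9 ± 0.454 FPKM in S37A and 52.5 ± 1.16 FPKM in vector (limma adjusted p = 0.216 and 0.782). Pam, the enzyme that amidates CGRP, calcitonin and adrenomedullin, averaged 19.9 ± 0.548 FPKM in S37A and 20.9 ± 0.706 FPKM in vector (limma adjusted p = 0.203). The neuroendocrine convertases Pcsk1 and Pcsk2 were below 0.1 FPKM in both groups, and Pcsk7 was listed at 0 in all 6 libraries.

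In the Gs and cyclic AMP list, 1 of 29 tested genes rose and 3 fell. Crtc2, a coactivator of CREB, had 12.7, 12.5 and 12.7 FPKM in S37A libraries, against 15.3, 15.1 and 15.4 FPKM in vector libraries (log2 difference -0.26, SE 0.0330, limma adjusted p = 0.00556). Its relative Crtc3 also fell, with 6.41 ± 0.0765 FPKM in S37A and 7.53 ± 0.185 FPKM in vector (limma adjusted p = 0.0138). Rapgef3, the cyclic AMP-activated exchange factor Epac, fell to 1.42 ± 0.148 FPKM in S37A, against 2.10 ± 0.238 FPKM in vector (limma adjusted p = 0.0177). Adcy7, an adenylyl cyclase, rose, with 13.2 ± 0.971 FPKM in S37A and 10.8 ± 0.875 FPKM in vector (limma adjusted p = 0.0322). Gnas, which encodes the Gs subunit, averaged 742 ± 13.3 FPKM in S37A and 754 ± 2.54 FPKM in vector, and Prkar1a, a regulatory subunit of protein kinase A, 130.3 ± 0.664 FPKM in S37A and 138 ± 2.90 FPKM in vector (limma adjusted p = 0.600 and 0.0763). Crtc3 was not called under median-ratio scaling, quantile normalization or without S37A replicate 2 or 3, Rapgef3 without S37A replicate 2 or with the highest model only, and Adcy7 under 7 of 14 alternatives.

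Of 10 genes that cyclic AMP induces in many cell types, 5 rose and 0 fell. Nr4a1, an orphan nuclear receptor, had 79.3, 82.9 and 88.1 FPKM in S37A libraries, against 37.9, 34.1 and 42.5 FPKM in vector libraries (log2 difference 1.11, SE 0.0785, limma adjusted p = 0.000916). Its relative Nr4a3 had 1.17, 1.37 and 1.44 FPKM in S37A libraries, against 0.580, 0.449 and 0.649 FPKM in vector libraries (limma adjusted p = 0.00498). For both genes every S37A library was above every vector library. The phosphatase gene Dusp1 rose as well, with 129 ± 12.5 FPKM in S37A and 93.1 ± 3.71 FPKM in vector (limma adjusted p = 0.00779). Sik1, a kinase that restrains the Crtc coactivators, averaged 11.4 ± 1.13 FPKM in S37A and 7.86 ± 0.698 FPKM in vector, and the clock gene Per1 8.19 ± 0.666 FPKM in S37A and 6.12 ± 0.261 FPKM in vector (limma adjusted p = 0.0103 and 0.0102). With the highest model only, Per1 was not called (log2 difference 0.12, limma adjusted p = 0.719). The other 5 of the list were not called, among them Ptgs2, with 878 ± 102 FPKM in S37A and 955 ± 95.8 FPKM in vector (limma adjusted p = 0.355). Genes of this list also respond to stress and to serum, which both groups had alike. What raised the 5 called genes was not tested. Whether the peptides act on these cells was not measured.

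Of factors known to steer the choice between the calcitonin and CGRP exons, 1 of 6 tested rose and 0 fell. Rbfox2, whose protein represses the calcitonin exon, had 25.8, 28.9 and 27.9 FPKM in S37A libraries, against 24.6, 24.8 and 24.5 FPKM in vector libraries (log2 difference 0.16, SE 0.0452, limma adjusted p = 0.0423), a call lost under 9 of 14 alternatives. Ptbp1 averaged 79.4 ± 1.56 FPKM in S37A and 75.4 ± 4.02 FPKM in vector, and Srsf6 39.1 ± 0.799 FPKM in S37A and 38.7 ± 1.19 FPKM in vector (limma adjusted p = 0.237 and 0.776). Srsf3, which favours the calcitonin exon, averaged 24.6 ± 2.31 FPKM in S37A and 20.7 ± 1.79 FPKM in vector (limma adjusted p = 0.0643).

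**Figure D4:**
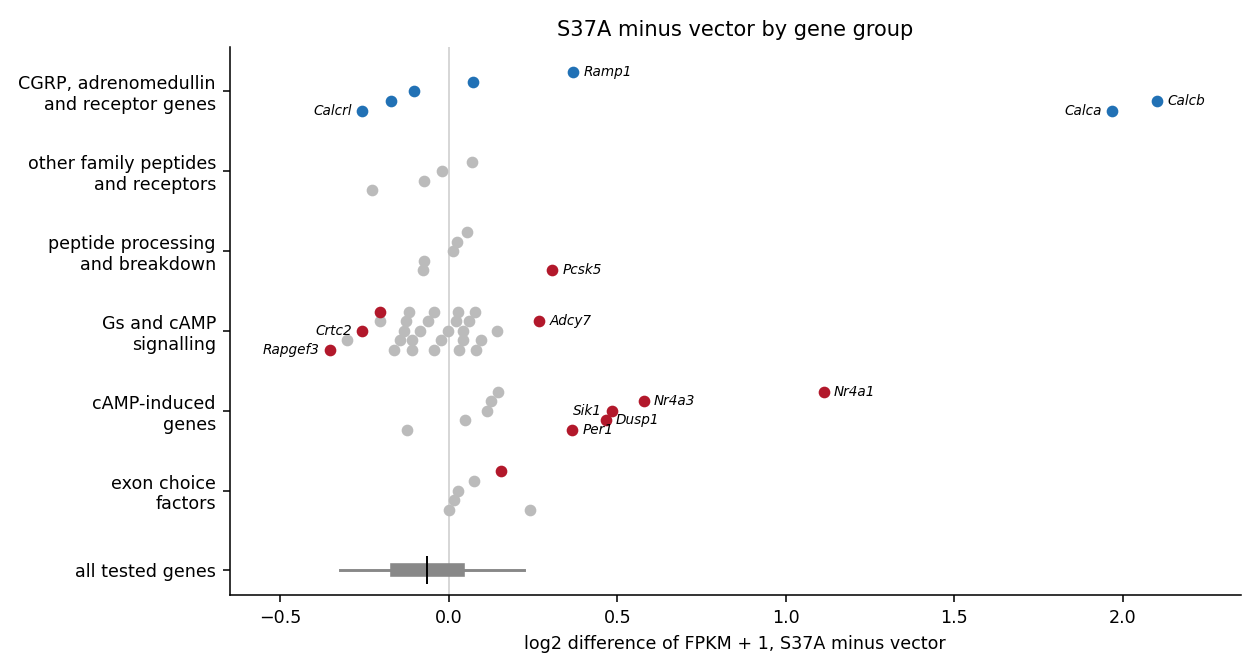
Difference of log2(FPKM + 1), S37A minus vector, for the 7 genes (blue) and for tested genes of 5 pathway lists (red, limma adjusted p under 0.05; grey, not called); the bottom row gives the median (tick), the interquartile range (thick) and the central 90% (thin) of all tested genes. Calca (1.97) and Calcb (2.10) lie apart from the lists, in which Nr4a1 (1.11) is farthest from 0.

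The chromosomal surroundings of Calca and Calcb were compared as well. Within 500 kb on either side the files hold 7 other genes, of which 5 passed the filter, 1 rose and 0 fell. The gene that rose was Insc, encoding the spindle-orientation adaptor inscuteable, which begins 22.4 kb beyond the end of Calcb on the same strand. Insc had 1.45, 1.52 and 1.15 FPKM in S37A libraries, against 0.659, 0.654 and 0.566 FPKM in vector libraries, a 2.19-fold ratio of means (log2 difference 0.54, SE 0.0726, limma adjusted p = 0.00614). All S37A libraries were above all vector libraries. On the other side, Cyp2r1, a vitamin D hydroxylase gene 68.5 kb from Calca, averaged 1.71 ± 0.195 FPKM in S37A and 2.20 ± 0.338 FPKM in vector (limma adjusted p = 0.0808), and its log2 difference of -0.24 turned to 0.21 with the highest model only. Pde3b, a phosphodiesterase gene, averaged 4.22 ± 0.237 FPKM in S37A and 3.96 ± 0.311 FPKM in vector, and Psma1 and Copb1 had log2 differences of -0.04 and -0.01 (limma adjusted p = 0.364, 0.276 and 0.815).

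**Figure D5:**
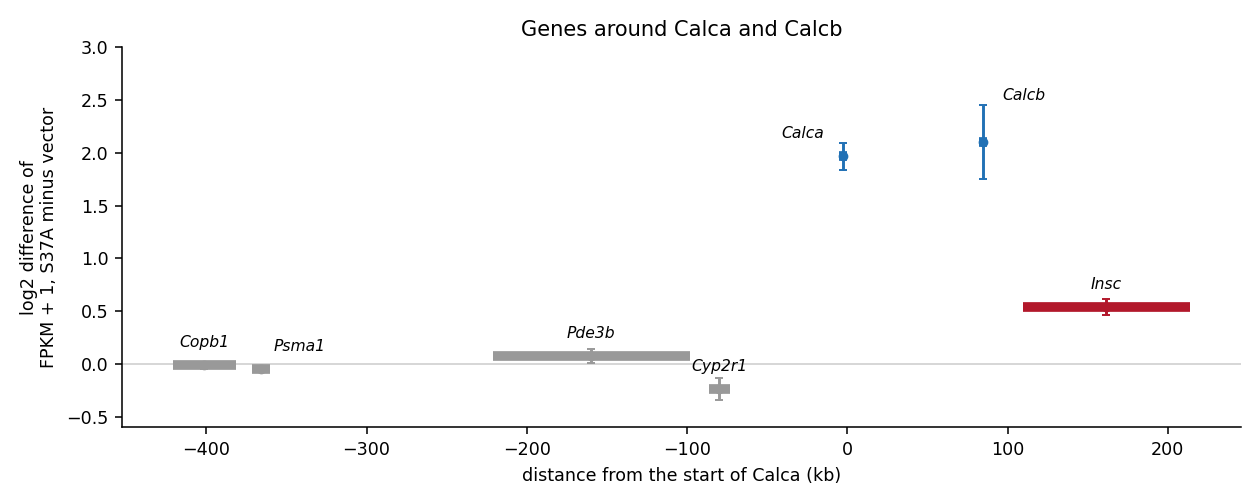
Difference of log2(FPKM + 1), S37A minus vector, of genes averaging 0.5 FPKM or more around Calca and Calcb, against distance from the start of Calca in kb; thick bars span each gene, and error bars are SE (n = 3 each). Calca, Calcb (blue) and Insc (red, called by limma) are higher in S37A, and the 4 genes on the other side of Calca are near 0 or below (grey).

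A promoter sequence was at hand in the RefSeq table (GRCm38.p6) for 5 of the 7 genes, Calca, Adm, Calcrl, Ramp1 and Ramp3, running from 250 bases before to 50 bases after the start. They were searched on both strands for CTTTGAA and CTTTGAT, the core letters bound by TCF/LEF factors, for TGACGTCA, the full cyclic AMP response element, and for TGACG, which the full element contains. The Calca promoter (chr7:114636308-114636607, minus strand) is shown because it alone of the 5 holds a TCF/LEF motif, in capitals at its first bases and read on the opposite strand, with TGACG in capitals further on.
Calca promoter: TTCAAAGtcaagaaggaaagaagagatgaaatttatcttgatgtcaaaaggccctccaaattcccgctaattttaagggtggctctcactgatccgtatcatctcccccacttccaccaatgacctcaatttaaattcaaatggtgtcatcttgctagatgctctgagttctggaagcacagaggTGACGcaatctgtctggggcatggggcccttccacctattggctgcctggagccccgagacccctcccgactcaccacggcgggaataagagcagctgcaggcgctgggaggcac

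Counted from the start, the CTTTGAA match lies at position -250 and the TGACG match at position -65. Of 32851 promoters of this length in the table, 5.14% held CTTTGAA, 3.73% CTTTGAT, 1.79% TGACGTCA and 20.8% TGACG. Ramp1 held a TGACG after its start, and Adm, Calcrl and Ramp3 held none of the 4 motifs. A match is a run of letters and not a measured binding site.

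Markers of other cells were followed beside these values, since CGRP is mostly known from nerves and C cells. Of 11 sensory neuron markers, 5 averaged under 0.1 FPKM, among them the defining genes Snap25 and Scn10a, and the summed level was 22.0 to 25.1 FPKM in S37A libraries and 20.3 to 23.8 FPKM in vector libraries, most of it Tubb3. Of 8 neuroendocrine markers, 6 averaged under 0.1 FPKM, Chga included, and the sum was 6.28 to 6.54 FPKM in S37A libraries and 6.90 to 8.31 FPKM in vector libraries. By limma, 0 of 3 tested neuron markers rose or fell, and the 1 tested neuroendocrine marker, the enolase gene Eno2, fell (limma adjusted p = 0.0367). Schwann cell markers summed to 4.62 to 5.37 FPKM in S37A libraries and 5.35 to 6.24 FPKM in vector libraries, with 0 of 4 tested rising and 1, the myelin gene Mbp, falling. Epithelial markers summed to 10.4 to 20.4 FPKM in S37A libraries and 13.0 to 19.1 FPKM in vector libraries, and 0 of 6 tested rose or fell. Stromal markers summed to 11419 to 11524 FPKM in S37A libraries and 9979 to 10357 FPKM in vector libraries, and of 9 tested, 2 (Acta2 and Tagln) rose and 1 (Pdgfra) fell.

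Macrophage markers did move with Calca and Calcb. Of 11 such markers, 9 passed the filter, and 7 rose and 0 fell, against 6.06% of all genes rising and 19.9% falling. The macrophage markers summed to 65.5, 66.8 and 59.4 FPKM in S37A libraries, against 28.8, 23.1 and 23.7 FPKM in vector libraries. Most of the sum was Lyz2, with means of 36.7 FPKM in S37A and 14.1 FPKM in vector. C1qa, a complement gene of macrophages, had 2.43, 3.39 and 2.89 FPKM in S37A libraries and 0.766, 0.193 and 0.521 FPKM in vector libraries. Tyrobp, an adaptor gene of myeloid cells, had 4.84, 4.52 and 4.001 FPKM in S37A libraries and 1.28, 0.477 and 0.584 FPKM in vector libraries. For both genes every S37A library was above every vector library. The defining markers Adgre1 and Ptprc averaged 0.235 and 0.138 FPKM in S37A, against 0.0786 and 0.0948 FPKM in vector. Both were under the filter and not tested, and for both every S37A library was above every vector library. The part of macrophages in the levels of Calca, Calcb and Ramp1 was not tested. In bulk RNA, more cells of a type and more RNA per cell cannot be told apart. Endothelial markers, which matter for Calcrl and Ramp2 because endothelium expresses both, summed to 107 to 111 FPKM in S37A libraries and 110.3 to 126 FPKM in vector libraries, and 0 of 9 tested rose and 0 fell. Most of the sum was Emcn, at 67.3 to 70.4 FPKM in S37A libraries and 71.7 to 81.7 FPKM in vector libraries. Cdh5 had 15.3 to 16.03 FPKM in S37A libraries and 16.07 to 17.3 FPKM in vector libraries. For Emcn and Cdh5 every S37A library was below every vector library, and for the other endothelial markers the groups overlapped. The part of endothelium in the level of Calcrl was not tested. Markers of lymphatic endothelium summed to 6.96 to 7.38 FPKM in S37A libraries and 6.99 to 7.32 FPKM in vector libraries, most of it Flt4. Of these lymphatic markers, Prox1 averaged 0.276 FPKM in S37A and 0.422 FPKM in vector, with every S37A library below every vector library. Prox1 was under the filter and not tested, and the groups overlapped for Lyve1 and Flt4.

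Likeness of pattern was taken as Pearson's r of log2(FPKM + 1) over the 6 libraries, among 9912 genes averaging 2 FPKM or more. The 5 genes most like Calca were Slc2a3 (a glucose transporter gene), Mmadhc, Atxn1, Vasn and Dmd (dystrophin), each with r of 0.997. Among the 5 most like Calcb were Has2 (a hyaluronan synthase gene), Trak2, Kank2 and Klhl26, with r between 0.995 and 0.997. Calca and Calcb had r = 0.976 with each other, which put Calcb at rank 100 for Calca and Calca at rank 64 for Calcb. With 6 libraries in 2 groups, such an r is high for any gene whose levels set the groups apart, and it is given as a description only.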

How the data were processed

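Per the labels' protocols, SMART-Seq cDNA was sequenced on an Illumina instrument. The tools named, per the submitters' processing notes, are Cufflinks, TopHat and bcl2fastq 1.8.3, with the mm10 build. The authors' deposited files give FPKM with confidence bounds for 34535 transcript models. They also hold a deposited coverage signal, which was a fixed multiple of FPKM within a library and was not used. Models of a symbol were summed, and 5 genes with a status other than OK were left out. Fragment numbers are (2 × FPKM / upper half-width) squared, summed over models. They follow the deposited interval widths, are not counts, and do not cover the spread between libraries. For Calca, whose FPKM are divided over 4 models, they may be too low. S37A replicate 1 gave 101 at 4.43 FPKM and a depth of 47.5 M, and S37A replicate 3 gave 134 at 4.52 FPKM and 44.4 M. How the division between models enters the widths was not tested. The depth of a library is the median over single-model genes of at least 6000 bases and 100 fragments.

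The test was limma 3.58.1 in R 4.3.3, on log2(FPKM + 1) of genes averaging 0.5 FPKM or more, with a trend on mean level and without a block. P-values were adjusted by Benjamini-Hochberg over all 12022 tested genes, and a call is an adjusted p under 0.05. Differences are S37A minus vector. SE of the 7 genes come from the library values, SE of other genes from limma. The fit was tested on simulated data. Alternatives were another pseudocount and filter, 2 other scalings, no trend, the highest model of each gene, a replicate block, and each library left out. Members, lists and alternatives were chosen with earlier results of these data known.

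Named genes are the 7 members, Ctnnb1 and Axin2, from each pathway list those called (at most 6) and the 2 most abundant, and the 5 genes most like Calca and Calcb, of which 1 is not reported here. Pam, Srsf3, Calcr, Iapp, Pcsk1, Pcsk2 and Pcsk7, marker genes and the genes around Calca and Calcb were added after their values were seen. The older symbol Adrbk1 in the files was matched to Grk2.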

Additional observations from a re-analysis of the deposited data

How the results depend on the processing

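With each library left out in turn, the log2 difference was 1.87 to 2.09 for Calca, 1.78 to 2.348 for Calcb, 0.34 to 0.39 for Ramp1 and -0.33 to -0.19 for Calcrl. For Ramp3 it was -0.0094 to 0.13, and the sign changed without vector replicate 3. With a pseudocount of 0.1 the log2 difference was 3.23 for Calca, 0.46 for Ramp1, -0.39 for Calcrl, -0.34 for Ramp2 and 0.29 for Ramp3, since a smaller pseudocount compresses low values less. With the highest model only it was 1.31 for Calca, whose FPKM are divided over 4 models. Median-ratio scaling gave -0.027 for Adm and 0.43 for Ramp1, and quantile normalization -0.038 for Adm and 0.46 for Ramp1. The share of CGRP models in Calca differed by -17.0 to -3.51 percentage points with each library left out, and the Calcb share of Calca and Calcb by -9.94 to -7.98 points.

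Over all genes, 729 were called higher and 2393 lower. The counts were 1339 higher and 890 lower under median-ratio scaling, and 1094 higher and 957 lower under quantile normalization. With the highest model only, 1491 were lower. Leaving out a library gave 298 to 747 higher and 606 to 2401 lower, the lowest counts being without S37A replicate 3. Of pathway genes, 8 were higher, against 5 with no filter, 4 with the highest model only and 5 to 9 with a library left out. The 3 lower became 1 to 5 with a library left out. The cause of these shifts was not tested. Same-number correlations of deviations between the groups were -0.12 to 0.10, and those of unlike numbers -0.13 to 0.097. With 3 libraries per group, such values cannot decide whether replicate numbers pair the libraries. With the replicate block 442 genes were higher and 1193 lower. Of 373 values of 27 single genes, 326 kept direction and call, 32 lost the call and 3 gained one (Adm2 without vector replicate 1, Cpe and Ptbp1 under median-ratio scaling, with log2 differences of 0.14 and 0.15). The other 12 changed sign with no call on either side. These were Crcp (0.0046), Gnas (0.058), Copb1 (0.068) and Psma1 (0.036) under median-ratio scaling, Gnas (0.045) and Copb1 (0.025) under quantile normalization, and Gnas (0.031) and Cyp2r1 (0.21) with the highest model only. With a library left out, Copb1 ranged over -0.038 to 0.013, Furin over -0.0051 to 0.025 and Srsf6 over -0.0095 to 0.032. Low fragment numbers for Ramp3, and for Calca in vector cells, limit what can be seen there.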
